A study of Homo sapiens with 2 samples.

Results

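The potassium channel genes are the 94 protein-coding genes whose symbol starts with KCN, of 20037 protein-coding genes in RefSeq GRCh38.p14, with KCNAB2 and KCNJ11 not counted. They were examined in the NeuroD1 ChIP-seq peak list of IMR-32 cells, a human neuroblastoma cell line with amplified MYCN and, per the labels, a wild-type genotype. The list came from 1 ChIP library made with a NeuroD1 antibody and held 6183 peaks on hg38. An input library without antibody also belongs to the series and was not used here. The labels name the NeuroD1 antibody, whereas the ChIP-seq methods of the study name an H3K27Ac antibody, and the list was used as labelled. There was no replicate, so every value describes this library and no test between conditions was possible.

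Potassium channels let potassium leave the cell down its gradient, and in this way set the resting potential, end the action potential and limit how often a neuron fires. Pore-forming subunits are opened by voltage (KCNA, KCNB, KCNC, KCND, KCNH and KCNQ), by intracellular calcium or sodium (KCNMA, KCNN and KCNT), or pass current at rest, as the inward rectifiers (KCNJ) and the tandem-pore leak channels (KCNK) do. Silent subunits (KCNF, KCNG, KCNS and KCNV) and auxiliary subunits (KCNAB, KCNE, KCNIP and KCNMB) modify these pores. NeuroD1 is a basic helix-loop-helix factor of neuronal and endocrine differentiation that binds E-boxes, sites with the letters CANNTG.

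NeuroD1 peaks lay at 22 of the 94 potassium channel genes, when peaks in the gene or up to 3 kb from either end were counted. This is 23.4% of them (15.3% to 33.3%, the 95% interval by the exact Clopper-Pearson method). Of all protein-coding genes 21.4% had one, so the share was near the background. The genes with a peak were KCNB2, KCNH1, KCNH2, KCNH3, KCNH6, KCNH7, KCNQ5, KCNF1, KCNMA1, KCNN1, KCNN2, KCNN3, KCNT2, KCNU1, KCNJ2, KCNJ4, KCNJ6, KCNJ14, KCNK3, KCNK9, KCNK12 and KCNIP1. Together they held 39 peaks, of which 28 overlapped the gene and 11 lay beside it. The intervals given here and below cover counting error only.

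A promoter was listed for 71 of the 94 genes, so promoters of the others could not be searched. The promoters of KCNH1, KCNN2, KCNH2 and KCNJ2 are shown because they were the listed potassium channel promoters that a peak reached. Each runs from 250 bases before to 50 bases after a start listed in RefSeq GRCh38.p14 and is written 5′ to 3′ on the strand of the gene. Capitals mark E-boxes, searched as CANNTG, which reads the same way on both strands.
KCNH1 (chr1:211134099-211134398, minus strand): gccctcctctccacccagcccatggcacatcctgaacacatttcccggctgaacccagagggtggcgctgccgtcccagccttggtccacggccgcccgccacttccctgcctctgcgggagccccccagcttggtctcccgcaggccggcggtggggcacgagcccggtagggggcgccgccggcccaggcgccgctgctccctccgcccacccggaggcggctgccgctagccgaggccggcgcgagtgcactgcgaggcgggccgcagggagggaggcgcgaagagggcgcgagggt
KCNN2 (chr5:114361820-114362119, plus strand): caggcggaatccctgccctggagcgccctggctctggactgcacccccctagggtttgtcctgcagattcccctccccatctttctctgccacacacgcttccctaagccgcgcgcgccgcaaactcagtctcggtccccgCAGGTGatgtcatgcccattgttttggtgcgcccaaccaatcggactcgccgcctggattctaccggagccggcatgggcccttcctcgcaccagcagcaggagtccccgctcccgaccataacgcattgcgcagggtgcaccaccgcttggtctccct
KCNH2 (chr7:150978272-150978571, minus strand): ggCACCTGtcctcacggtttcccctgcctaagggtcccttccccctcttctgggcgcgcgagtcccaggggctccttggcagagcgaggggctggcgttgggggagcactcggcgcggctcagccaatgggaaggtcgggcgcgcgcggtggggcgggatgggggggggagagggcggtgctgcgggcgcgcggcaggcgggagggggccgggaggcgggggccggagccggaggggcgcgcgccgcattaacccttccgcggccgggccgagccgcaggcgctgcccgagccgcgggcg
KCNJ2 (chr17:70169282-70169581, plus strand): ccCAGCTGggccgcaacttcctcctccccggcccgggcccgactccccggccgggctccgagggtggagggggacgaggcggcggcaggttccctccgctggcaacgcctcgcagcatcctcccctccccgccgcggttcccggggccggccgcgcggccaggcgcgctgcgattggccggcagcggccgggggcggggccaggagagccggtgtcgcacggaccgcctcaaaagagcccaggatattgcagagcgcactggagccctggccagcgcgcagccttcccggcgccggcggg

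In these windows, 3 of the 4 promoters held 1 E-box, and the KCNH1 window held none. The CAGCTG of KCNJ2, which begins 248 bases before the listed start, lay inside the called peak. The CAGGTG of KCNN2, 109 bases before its start, and the CACCTG of KCNH2, 248 bases before its start, lay outside the called peaks. Any CANNTG was present in 64.2% of the 106 listed promoters of potassium channel genes and in 68.7% of all 35116 promoters of the table. CAGATG or its reverse complement CATCTG was present in 17.9% of the potassium channel promoters and in 14.7% of all promoters, and in none of the 4 that a peak reached. Of all 2921 promoters that a peak reached, 8.73% held this motif, and 56.8% held an E-box of any kind. CAGCTG, which also counts as a CANNTG, was present in 22.6% of the potassium channel promoters and in 17.9% of all promoters. These matches are descriptions of the letters in the windows.

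Gene length bears on such counts, since a longer gene covers more sequence in which a peak can lie. The potassium channel genes with a peak had a median length of 127 kb, and those without a peak 28.3 kb. Over all protein-coding genes, the share with a peak rose from 8.88% in the shortest length bin to 36.2% in the longest. Genes of the same lengths as the 94 potassium channel genes had a peak in 24.2% of cases, which corresponds to 22.7 genes, so the observed count of 22 lay within 1 gene of it. Of the 29 potassium channel genes of 100 kb or longer, 12 had a peak (41.4%, interval 23.5% to 61.1%), against 33.4% of protein-coding genes of such length. Among the 65 shorter genes, 10 had a peak (15.4%, 7.63% to 26.5%), against 19.0%. In both classes the interval held the share of all protein-coding genes.

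The subfamilies differed in their counts. Among the ether-a-go-go type channels (KCNH), 5 of 8 genes had a peak (62.5%, interval 24.5% to 91.5%), while 29.1% was the share at matched gene length. Among the small- and intermediate-conductance calcium-activated channels (KCNN), 3 of 4 had a peak (75%, 19.4% to 99.4%), against a matched share of 28.6%. None of the 8 Shaker-type KCNA genes had a peak (0%, interval up to 36.9%), against a matched share of 17%, and their median length was 7.83 kb. There was likewise no peak at the 4 KCNC genes, which serve fast firing (matched share 26.2%), or at the 3 KCND genes, which carry A-type currents (30.1%). KCNB had a peak at 1 of 2 genes and KCNQ at 1 of 5. For the inward rectifiers (KCNJ), 4 of 15 genes had a peak (26.7%, 7.79% to 55.1%), against a matched share of 22.9%, and for the leak channels (KCNK) it was 3 of 15 (20%, 4.33% to 48.1%), against 22.2%. The interval of each of these subfamilies held its matched share, so none was separated from genes of like length at these numbers.

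The genes were also counted by role. The calcium- or sodium-activated or related pore subunits are KCNMA1, the KCNN and the KCNT genes, with KCNU1 counted as related. Of these 8 genes, 6 had a peak (75%, 34.9% to 96.8%), against a matched share of 30.3%. Among the 16 auxiliary subunits and regulators, KCNIP1 alone had peaks (6.25%, 0.158% to 30.2%), and the interval held the matched share of 23.3%. The silent subunits had a peak at 1 of 10 genes, KCNF1, against 19.6%. The 30 voltage-gated pore subunits had a peak at 7 genes (23.3%, 9.93% to 42.3%), against 26.2%. The interval of the calcium- or sodium-activated or related group lay above its matched share. However, the interval held that share when only the gene body was counted (4 of 8, 15.7% to 84.3%, matched share 26.0%). It also held the share with 5 of 8 genes (24.5% to 91.5%), within 1 kb and with a −log10 q or a fold enrichment of at least 5, where the matched shares were 24.7% to 29.7%. This group is 1 of 6 roles and was formed with the peaks known, so its count is a description. KCNU1 is among the 6 genes with a peak. The interval without it was not taken, so the group is not called separated from genes of like length.

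The fold enrichment of the 39 peaks had a median of 7.23, from 3.68 to 39.0, and the median over all peaks of the list was 6.79. Fold enrichment is the ChIP signal at the summit over the local background. The summits were covered by 10 to 80 ChIP reads, with a median of 15, over a local background from 1.04 to 3.0. None had a local background above 10, as 112 peaks of the whole list did. With the exact Poisson interval of the reads and the background held fixed, the fold enrichment of 34 of the 39 peaks could not be told from the median of all peaks. The interval lay above that median at 3 peaks, of KCNJ4, KCNB2 and KCNN3, and below it at 2, of KCNJ2 and KCNT2.

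Among the voltage-gated pore subunits, KCNB2, a delayed rectifier, held 2 peaks 101 kb apart inside its 401 kb gene. The stronger one, chr8:72874613-72874853, reached a fold enrichment of 11.6 (interval 7.51 to 17.1) from 23 reads, with a −log10 q of 18.0. The weaker, chr8:72773215-72773428, had 10 reads, the fewest of the 39, and a fold enrichment of 5.31. Their intervals overlapped, so the order of the 2 peaks rests on few reads. The stronger peak also lay at the antisense transcript KCNB2-AS1.

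KCNH7, a member of the ether-a-go-go-related branch, likewise held 2 peaks deep inside a gene of 467 kb. The peak at chr2:162475775-162476097 had a fold enrichment of 10.6 (6.75 to 15.9) from 21 reads, with a −log10 q of 15.4. The peak at chr2:162741099-162741404 had 9.16 (5.63 to 14.2) from 18 reads, with a −log10 q of 11.8. Both lay at the lowest local background of the list, 1.04, and did not differ beyond their intervals.

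KCNH2, the channel of the rapid delayed rectifier current of the heart, had 3 peaks within 7.08 kb around its 5′ end. The peak over the promoter shown above, chr7:150978358-150978556, had the lowest fold enrichment of the 3, 4.58 (2.59 to 7.60), from 13 reads and with a −log10 q of 3.23. Its neighbor at chr7:150979116-150979381, with a summit 958 bp upstream of the listed start, had 7.85 (5.10 to 11.6) from 23 reads and a −log10 q of 12.1. The last, chr7:150972112-150972308, lay in the gene with 6.21 (3.82 to 9.63) from 18 reads. All 3 had a local background of 2.0, and the intervals overlapped. Both upstream peaks also lay within 3 kb of the transcript LOC124901776.

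KCNH1, the founding human ether-a-go-go channel, had a pair of peaks at its start and another far inside the gene. The peak at chr1:211133986-211134319 covered the listed start, with its summit 48 bp upstream, and had a fold enrichment of 6.21 (3.82 to 9.63) from 18 reads and a −log10 q of 7.32. The next peak, chr1:211133485-211133681, had its summit 578 bp downstream of the start and 6.34 (3.73 to 10.2) from 15 reads. The distal peak, chr1:210722771-210723086, lay 411 kb from the start with 5.08 (2.93 to 8.29) from 14 reads. Both peaks at the start also lay at the transcript KCNH1-IT1.

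KCNH3 and KCNH6 held 1 peak each, and the remaining 3 KCNH genes held none. The peak of KCNH6, chr17:63550190-63550487, had a fold enrichment of 8.96 (6.21 to 12.5) from 32 reads, over a local background of 2.61, and a −log10 q of 18.6. It lay 1198 bp beyond the 3′ end of KCNH6 and reached a listed promoter of DCAF7, the gene next to it. Near the start of KCNH6 itself no peak was called, and the summit was 26.9 kb from that start. KCNH3 had a peak of 5.19 from 13 reads, chr12:49538902-49539073, which spans an end of the gene at position 49539030. No start or strand was listed for KCNH3. KCNQ5, a subunit of the M-type current that restrains firing, had its single peak at chr6:72930625-72930801, 309 kb inside the gene, with 8.77 (5.59 to 13.2) from 21 reads and a −log10 q of 12.6.

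The silent subunit gene KCNF1, whose product alters other voltage-gated channels without forming a channel of its own, is 2.29 kb long. Its peak, chr2:10909774-10909922, lay upstream with the summit 2102 bp from the start and had a fold enrichment of 8.20 from 17 reads.

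The calcium-activated KCNN genes, whose channels carry the afterhyperpolarization that follows action potentials, held 9 of the 39 peaks. KCNN3 had 5, the most of any potassium channel gene, and 5 or more peaks were found at 0.2% of protein-coding genes and at 1.013% of those of 100 kb or longer, as KCNN3 is with 173 kb. All 5 lay within 18.4 kb in the part of the gene downstream of its listed starts, with neighboring summits 2.09 to 8.08 kb apart. From the summit nearest to a listed start, at 3687 bp, to the farthest, at 22120 bp, their reads were 24, 19, 23, 23 and 14. The strongest 2 were chr1:154856079-154856493, with a fold enrichment of 10.6 (6.95 to 15.6) at a −log10 q of 17.03, and chr1:154842605-154842878, with 10.3 (6.69 to 15.2) at a −log10 q of 16.0. The other 3, at chr1:154848019-154848195, chr1:154839735-154839963 and chr1:154837719-154837864, had 7.57, 7.85 and 5.68. The intervals of all 5 overlapped, from 3.28 to 9.27 at the weakest, so no order among them is separated by the reads.

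KCNN2 had a pair of peaks 825 bp apart at a listed start that lies inside the gene. The peak over the promoter shown above, chr5:114361995-114362195, had its summit 31 bp downstream of that start and a fold enrichment of 6.27 (3.48 to 10.6) from 12 reads. The one upstream, chr5:114361176-114361352, had 7.71 (4.53 to 12.4) from 15 reads. KCNN1 also had a pair, 923 bp apart and upstream of the gene. They lay at chr19:17949052-17949236, with 8.68 (5.26 to 13.6) from 17 reads, and at chr19:17948155-17948331, with 6.79 (3.92 to 11.1) from 14 reads. The gaps to the gene were 2054 and 2959 bp, and the second was close to the 3 kb limit of the count. KCNN4, the intermediate-conductance channel of blood and epithelial cells, had no peak.

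In the same role group, KCNMA1, the pore of the large-conductance channel opened by calcium and voltage, is 768 kb long and had 1 peak, of 7.23 from 14 reads, 260 kb from its nearest listed start. KCNU1, a channel of sperm, had a peak with the same values, 7.23 from 14 reads. The sodium-activated channel KCNT2 had a peak whose summit lay 580 bp upstream of its start, where the fold enrichment was 3.68 (2.13 to 6.01), with a −log10 q of 2.16. KCNT2 and KCNJ2 shared the lowest fold enrichment of the 39 peaks, each with 14 reads over a local background of 3.0.

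Among the inward rectifiers, KCNJ4, a strong rectifier of neurons, had the peak of highest fold enrichment of all potassium channel genes. It lay at chr22:38455929-38456348, with its near edge 730 bp upstream of the 5′ end of the gene, and was 420 bp wide. Its fold enrichment was 39.0 (31.0 to 48.4) and its −log10 q was 109.9, with 80 reads (63.4 to 99.6) over the lowest local background of 1.04. It ranked 12 of 6183 by fold enrichment and was the only peak of these genes whose interval lay above the upper quartile of all peaks, 8.68. The only KCNJ4 start in the promoter table lies inside the gene, 12.1 kb from the summit, and the peak also lay within 3 kb of the transcript LOC124905116. Without the KCNJ4 peak, the median fold enrichment of the other 38 peaks was 7.01.

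KCNJ6, a rectifier opened by G proteins and the potassium channel that many inhibitory transmitters act on, had 3 peaks within 14.3 kb, 46094 to 60443 bp downstream of its start. In order from the start they were chr21:37870240-37870454 with a fold enrichment of 6.27 (3.48 to 10.6), chr21:37862499-37862646 with 4.91 (2.83 to 8.01) and chr21:37855926-37856130 with 6.75 (3.82 to 11.2), from 12 to 14 reads each. None of the 3 was above the median of all peaks. KCNJ2, which sets the resting potential of muscle and heart cells, had the promoter peak shown above, chr17:70169227-70169372, with its summit 256 bp upstream of the start, and 3.68 as fold enrichment. KCNJ14 had a peak of 4.91 from 14 reads, 2110 bp beyond its 3′ end, and this peak reached a listed promoter of CYTH2. Its −log10 q of 3.98 equalled that of the weakest KCNJ6 peak.

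The leak channels held 1 peak each at 3 genes. KCNK3, an acid-sensitive background channel, had the strongest, chr2:26712720-26713024, 20.1 kb from its start, with a fold enrichment of 8.06 (4.95 to 12.5) from 18 reads and a −log10 q of 10.1. KCNK9, its close relative, had a peak of 6.27 from 12 reads beside the gene. KCNK12 had a peak of 5.81 from 14 reads, inside the gene.

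KCNIP1, a calcium-binding protein that modulates KCND channels, had 4 peaks in a gene of 383 kb. One lay at chr5:170427722-170427937, with a fold enrichment of 9.64 (6.0 to 14.8) from 19 reads and a −log10 q of 12.97. The other 3 were grouped 179 kb away, at chr5:170607025-170607202 with 9.09 (5.58 to 14.1), chr5:170612276-170612421 with 6.34 (3.59 to 10.5) and chr5:170614031-170614233 with 8.48 (5.21 to 13.1). Each summit was at least 74337 bp from a listed start. The genes of its partner channels, KCND1, KCND2 and KCND3, had no peak.

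Several peaks lay at some of the genes. In all, 9 of the 94 genes had 2 or more peaks (9.57%), against 4.42% of all protein-coding genes, and 5 had 3 or more (5.32%), against 1.22%. Of the 29 potassium channel genes of 100 kb or longer, 7 had 2 or more peaks (24.1%, 10.3% to 43.5%), against 10.8% of protein-coding genes of that length. For 3 or more peaks it was 4 of the 29 (13.8%, 3.89% to 31.7%), against 4.56%. Both shares were higher than those of long genes in general, and both intervals held the latter. The 9 genes were KCNB2, KCNH1, KCNH2, KCNH7, KCNIP1, KCNJ6, KCNN1, KCNN2 and KCNN3. At KCNH2, KCNJ6, KCNN1, KCNN2 and KCNN3, all summits of the gene lay within 20 kb.

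Most peaks lay away from the listed starts. A start was listed for 16 of the 22 genes, with 31 peaks, and none was listed for KCNB2, KCNH3, KCNH7, KCNK9, KCNK12 and KCNU1. Of these 31 peaks, 8 had an edge within 1 kb of a start (25.8%, 11.9% to 44.6%), against 58.4% of the 4602 peak and gene pairs of all protein-coding genes. The 8 peaks belonged to KCNH1, KCNH2, KCNN2, KCNJ2 and KCNT2. Counted by gene, 5 of 16 had a peak within 1 kb of a start (31.2%, 11.0% to 58.7%), against 70.3% of all protein-coding genes with a peak and a listed start. Over all genes this share is lower for long genes, so it was also taken within length classes. In genes of 100 kb or longer it was 25% of 20 peaks (8.66% to 49.1%) against 36.4%, and in shorter genes it was 27.3% of 11 peaks (6.02% to 61.0%) against 69.0%. The interval held the share of all genes for the long genes and not for the short ones. Of the 11 peaks of the short genes, 5 belong to KCNH2 and KCNN1, and peaks of 1 gene are not independent. The KCNJ4 peak is also among the 11 and was counted as away from a start, because the only listed start lies inside that gene. Its near edge lay 730 bp upstream of the 5′ end of KCNJ4. The interval with this peak counted as near a start was not taken, so the short genes are not called separated from all genes in this share. The median distance from summit to start was 13.6 kb for the potassium channel genes and 0.379 kb for all pairs.

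The limit of 3 kb left some genes close to the line. Just inside it were KCNJ14 (gap of 2110 bp), KCNN1 (2054 bp) and KCNF1 (2012 bp). Just outside were KCNK6, with the nearest peak at 3633 bp and a fold enrichment of 5.79, and KCNJ10, a rectifier of glial cells, with the nearest peak at 5239 bp and a fold enrichment of 16.2. KCNIP2, KCNV2 and KCNS2 had the nearest peak between 7228 and 9864 bp. Of the 72 genes without a peak, 48 had none within 100 kb, and the median gap to the nearest peak was 237 kb. The 5 longest genes without a peak were KCNIP4 (1220 kb), KCND2 (477 kb), KCNAB1 (421 kb), KCNQ1 (404 kb) and KCNH8 (387 kb). KCND2 and KCNIP4, whose products form a channel and its modulator, had their nearest peaks 646 kb and 639 kb away.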

How the data were processed

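The peak list of the NeuroD1 ChIP library of IMR-32 cells, 1 library in all, was the only file used, and input was not analysed here. The submitters' processing notes list BWA 0.7.17, MACS2 2.2.7 and hg38, whereas the deposited peak names hold "macs3". Neither the control, the q threshold nor the depth of the library is given in the sources used here. The fold enrichment deposited by the authors is the ratio of the ChIP pileup to the local background at the summit, with 1 added to each. For the p-value and the q-value at that position the authors deposited the −log10. The score that the authors deposited restates the −log10 q and was left aside.

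Potassium channel genes were the 94 protein-coding RefSeq genes (GRCh38.p14) with a symbol that starts with KCN, without KCNAB2 and KCNJ11. A peak was counted for each gene it overlapped or reached within 3 kb of either end. Gene starts and strands were taken from a RefSeq promoter table, which listed a start for 71 of the 94 genes. For each summit, fold enrichment and −log10 p were turned back into ChIP reads and local background by inverting the Poisson test of MACS. The weight of 1 read, 0.98, was the value that best fitted the list, on a grid from 0.9 to 1.1, and the solved values gave back the −log10 p within 0.01 for 99.9% of all peaks. Tested on simulated data, 1000 peaks, the solver recovered the read number in 100%. The length-matched share is the percentage of protein-coding genes with a peak in each of 10 bins of gene length, weighted by the genes of the group in each bin. Intervals are at 95% and cover counting error only, with exact Poisson intervals for reads and exact Clopper-Pearson intervals for shares. With 1 library, no test was run.

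The genes, groups and lists were chosen with earlier results of these data known. Every gene with a peak is named. Fold enrichment and position are given for the 12 highest peaks, genes with 2 or more peaks and the highest peak of each subfamily. Reads, local background and −log10 q are given for part of these peaks. Genes without a peak are given as counts, and the 5 longest of them by name. Others without a peak are named where they lie just outside the 3 kb limit or belong with a gene that had peaks (KCNN4, KCND1 and KCND3), and these were chosen after their values were seen. The alternatives were a −log10 q or a fold enrichment of at least 5, other distances from the gene, the summit in place of the interval, 1 gene for each peak, peaks of raised background left out and other numbers of length bins. Calculations used scipy 1.17.1, numpy 2.4.6 and pandas 2.3.3 under Python 3.11.15, and plots matplotlib 3.10.9.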

Additional observations from a re-analysis of the deposited data

How the results depend on the processing

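The count of 22 potassium channel genes with a peak was 14 when only the gene body was counted, as fewer positions then qualify, and lay between 17 and 27 under the other alternatives. Over all alternatives, the difference between their share and the length-matched share went from -5.02 percentage points, within 1 kb, to 1.19 points, within 10 kb. It was -0.77 points under the settings of the report, so its sign changed, and it was above 0 also when each peak went to 1 gene (0.49). The median fold enrichment stayed between 7.23 and 7.85. The KCNJ count of 4 was 2 with a −log10 q of at least 5, 2 at 5-fold enrichment or more and 1 in the gene body. The other 7 subfamilies of the rule stayed within 1.5 times under each alternative run. Alternatives for the KCNN genes and the role groups were added after the data were seen. They gave 2 or 3 KCNN genes and 4 to 6 genes of the calcium- or sodium-activated or related group. For auxiliary subunits they gave 1 gene, or 2 within 10 kb. No paired analysis was possible because the ChIP was done in 1 library, and no value has a replicate check. At 10 to 32 reads for 38 of the 39 summits, the order of most peaks is not resolved.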

Other observations

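Peaks were also called at genes for partner subunits and related channels outside the KCN names. HCN2, a pacemaker channel opened by hyperpolarization, had 1 peak with a fold enrichment of 7.71. ABCC8, the regulatory subunit of ATP-sensitive channels, had 2, of 7.85 and 6.87. No peak was called at DPP6 (1146 kb) or DPP10 (1403 kb), which code for partners of the KCND channels, at the KCNB partner AMIGO1, or at ABCC9.

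Among channel and receptor genes of similar kind, voltage-gated calcium and sodium channel genes (CACN and SCN) had a peak at 8 of 40 genes (20%, interval 9.05% to 35.6%), against a matched share of 28.2%. Glutamate and GABA receptor genes had a peak at 10 of 46 (21.7%, 10.9% to 36.4%), against 29.4%. The share of potassium channel genes, 23.4% against 24.2%, was not tested against these.

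The potassium channel genes with a peak were spread over 12 chromosomes. None of the 8 on chromosome 11 and none of the 5 on chromosome 20 had a peak, where 18.9% and 22.3% of protein-coding genes had one. On chromosome 8, 3 of 6 had a peak, against 18.3% of protein-coding genes. For single chromosomes no interval was taken and gene length was not matched, so these counts are descriptions and separate no chromosome.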
